A study of Mus musculus with 12 samples.

Results

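Acsl1 encodes a long-chain acyl-CoA synthetase, and the title of the series names it as the mediator of a change in fatty acid synthesis in type I diabetes. Of the 139999 open-chromatin peaks in the deposited tables, the 23 that the authors assigned to Acsl1 were taken, in each of the 3 phases of the experiment. They run from 84.9 kb upstream of the gene start to 68.8 kb downstream of it, on mouse chromosome 8 (build mm10). The libraries are ATAC-seq of bone marrow derived macrophages from male C57BL/6J mice that were 8 weeks old when allocated, in 6 groups of 2 libraries. The first phase holds diabetic and healthy cells, the rest phase diabetic-trained and untrained cells, and the second phase diabetic-trained and untrained cells. Diabetes was induced with streptozotocin (42 to 45 mg/kg on each of 5 days), and animals with non-fasting glucose over 16.9 mmol/L then stayed hyperglycaemic for 6 weeks. Rest-phase cells, trained or not, were grown for 7 days in M-CSF at 5 mmol/L glucose, and second-phase cells, trained or not, were afterwards exposed for 16 hours to LPS (100 ng/mL) with IFN-γ (10 ng/mL). "Trained" therefore means that the marrow came from a diabetic mouse, and the high glucose was met in the animal and not in the dish. The point at which first-phase cells were taken is not in the labels. Nothing there ties the pair of libraries of a group to separate animals either, so a p-value covers library-to-library spread alone, part of which may be technical.

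Acyl-CoA synthetases join coenzyme A to free fatty acids, the step that commits a fatty acid to oxidation, to storage in triglyceride or to membrane lipid. Acsl1 is the long-chain family member known for feeding oxidation in heart and fat, and in mouse macrophages it is known to be induced by LPS and other inflammatory stimuli. ATAC-seq counts the cuts of a transposase in accessible DNA, so a peak reports how open a promoter or a distal element is and not how much RNA the gene makes. In these bulk libraries, fewer cells with an open site and a site that is less open in each cell cannot be told apart.

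The deposited tables hold the mean of each group, in 2 columns whose headers do not say which is diabetic. The groups are therefore called A and B, and A of one phase need not be A of another. Reads of the single libraries were recovered from these means and are numbered 1 and 2 within a group. Levels below are log2 (quantile-scaled reads + 1) over all 12 libraries unless another scale is named.

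RefSeq (GRCm38.p6, the same build) gives Acsl1 the interval chr8:46471037-46536051 on the plus strand, with a second start inside the gene. The 250 bases before either start are printed because only one of them lay in a peak. Capitals mark the GC box (GGGCGG, searched on both strands) in the first, and the CCAAT box (shown as ATTGG, its reverse strand) in the second.
Acsl1 start 1, chr8:46470787-46471036: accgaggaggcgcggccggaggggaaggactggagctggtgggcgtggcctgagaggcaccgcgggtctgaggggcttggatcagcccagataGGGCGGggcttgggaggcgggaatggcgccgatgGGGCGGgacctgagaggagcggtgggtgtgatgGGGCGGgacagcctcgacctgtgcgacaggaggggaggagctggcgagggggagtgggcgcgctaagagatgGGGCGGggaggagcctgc
Acsl1 start 2, chr8:46490716-46490965: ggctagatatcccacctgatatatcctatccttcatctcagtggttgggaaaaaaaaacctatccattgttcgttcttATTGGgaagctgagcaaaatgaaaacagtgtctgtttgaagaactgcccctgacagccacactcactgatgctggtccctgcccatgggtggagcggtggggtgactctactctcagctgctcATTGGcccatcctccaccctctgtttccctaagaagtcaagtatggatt
Start 1 had 72.0% G and C, 20 CpG dinucleotides and 4 GC boxes, and all of it lay under the start peak. Start 2 had 48.4% G and C, 2 CpG dinucleotides and 2 CCAAT boxes. No peak overlapped start 2, and the nearest ended 2645 bp before that start. Over the same window of 32851 RefSeq starts the median was 52.4% G and C and 6 CpG dinucleotides, 32.7% held a GC box and 33.8% a CCAAT box. Neither 250-base window held the TATA box TATAAA, the NF-kB motif, the interferon response element (ISRE) or the STAT motif TTCNNNGAA, which were present in 12.4%, 0.356%, 2.98% and 7.02% of those windows. Such matches describe letters and say nothing of binding.

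The 23 peaks fall into 9 upstream of the promoter, 2 in the promoter (1.5 kb upstream and at the start), 3 in intron 1, 3 in intron 2, 5 in the later gene body and 1 past the gene end. These parts go by position, and the authors annotate the peaks 16.9 and 62.9 kb downstream as promoter (2-3kb) of other transcripts of the gene. All 23 had reads in every library, and none was lost to a filter. The start peak, chr8:46470652-46471051, also overlaps the annotated interval of the lncRNA Gm31050, so its reads cannot be given to either alone. It was the most open of the set, at the 99.7th percentile of all peaks by its mean level in the first phase, the 99.4th in the rest phase and the 99.7th in the second phase. The next by mean level over the 12 libraries was an intron 2 peak 26.5 kb downstream, at the 86.6th, 89.7th and 90.6th percentiles in the same order of phases. The least open on average, at a mean level of 3.40 over the 12 libraries, lay 21.2 kb upstream. One upstream peak, 84.9 kb away, is annotated to exon 1 of another transcript. The other peaks upstream of the promoter and the one 68.8 kb downstream are annotated as distal intergenic. For all of these the assignment to Acsl1 rests on distance to a start.

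The 4 libraries of the second phase were not alike under their shared stimulation label, and this bears on every result of that phase. Over 20 genes of the interferon and LPS response (such as Cxcl10, Nos2 and Il12b), the mean peak level was 4.81 in second-phase library A1, 6.39 in A2, 4.82 in B1 and 6.62 in B2, against 4.77 to 4.90 in the 4 rest-phase libraries. All 20 genes stood above every rest-phase library in A2 and in B2, but 3 did in A1 and 5 in B1. Of all peaks, 16.0% stood above every rest-phase library in A1, 22.3% in A2, 26.1% in B1 and 24.7% in B2. Across all peaks A2 and B2 correlated with each other at 0.935, while A1 correlated with A2 at 0.823 and B1 with B2 at 0.737. With the rest-phase libraries, A1 correlated at 0.841 to 0.977 and B1 at 0.805 to 0.895, and A2 and B2 at 0.745 to 0.810. Of the 23 Acsl1 peaks, 2 stood above every rest-phase library in A1, 18 in A2, 9 in B1 and 17 in B2. At the response genes A1 and B1 thus stood with the rest phase. Over all peaks A1 did too, while B1 was further from it and had the largest share above every rest-phase library. The files do not show whether A1 and B1 were stimulated as labelled. Second-phase values are therefore given by library, and no set of libraries was formed from them. Total reads in peaks ranged from 3827344 (second-phase B1) to 18602644 (rest-phase A1), and the locus itself held 616 and 2417 reads in these libraries.

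**Figure D1:**
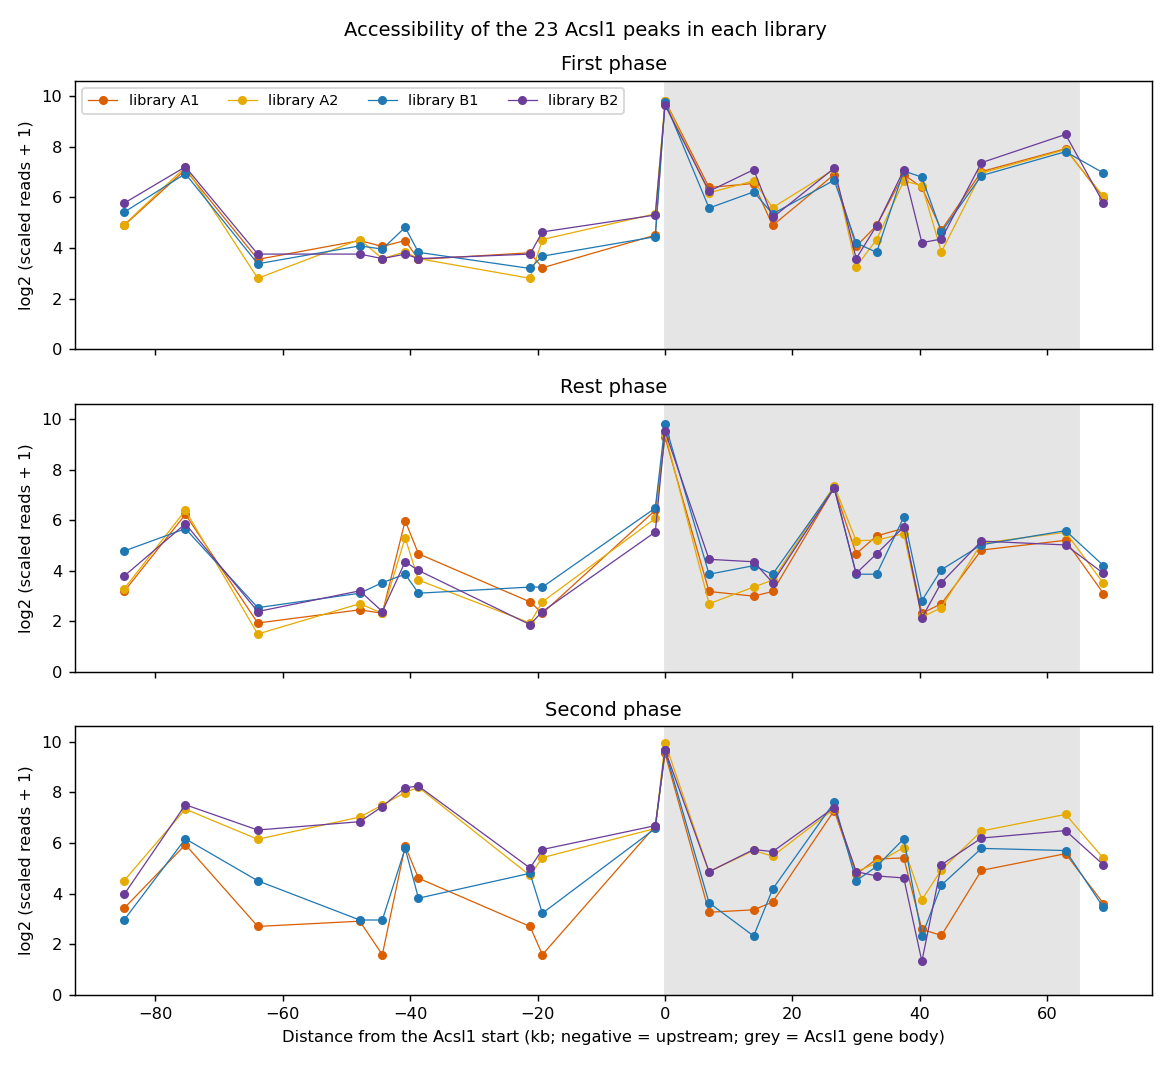
Level of the 23 Acsl1 peaks (log2 of quantile-scaled reads + 1, y axis) against distance from the gene start in kb (x axis), with 1 line per library and 1 panel per phase. The start peak is the highest point in every library, and second-phase libraries A2 and B2 stand above A1 and B1 between 47.9 and 38.7 kb upstream.

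The upstream block of Acsl1 carried the largest differences between libraries of the second phase. At the peak 44.4 kb upstream (chr8:46426265-46426664), second-phase libraries A1, A2, B1 and B2 held 2, 214, 8 and 115 reads, against 5, 5, 10 and 5 reads in rest-phase libraries A1, A2, B1 and B2. Its levels were 1.58, 7.50, 2.95 and 7.44 in the second phase, against 2.32, 2.32, 3.53 and 2.39 in the rest phase. A2 and B2 were thus 4.85 and 4.79 log2 units above the rest-phase mean, while A1 was below it by value (-1.06) and B1 was 0.31 above it.

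The same split ran through the neighbouring peaks. At 38.7 kb upstream the second-phase libraries held 44, 341, 12 and 196 reads in the same order, against 51, 19, 8 and 14 in the rest phase. At 47.9 kb upstream they held 9, 152, 8 and 76 reads, against 6, 7, 8 and 8. At 40.8 kb upstream, the counts were 130, 299, 27 and 189, against 144, 75, 12 and 18. At each of these, A2 and B2 were above every rest-phase level and A1 was below at least one of them. The peak 63.9 kb upstream (chr8:46406714-46407113) differed in that B1 was high too. It had levels of 2.70, 6.14, 4.50 and 6.51 in second-phase A1, A2, B1 and B2, against 1.94, 1.50, 2.54 and 2.39 in the rest phase. On the quantile scale the second-phase and rest-phase ranges did not overlap there. As shares of the reads in peaks they did, with second-phase A1 below rest-phase B1 and B2. Second-phase A1 held 7 reads at this peak, against 3, 2, 6 and 5 in rest-phase A1, A2, B1 and B2. The share of all peaks without overlap was not counted. At 21.2 kb upstream B1 was likewise high, with second-phase levels of 2.70, 4.71, 4.80 and 5.01, against 2.77, 1.94, 3.36 and 1.87 in the rest phase.

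Counted over the locus, 6 of the 23 Acsl1 peaks in A2 and the same 6 in B2 lay more than 2 log2 units above all 4 rest-phase libraries, and 0 did in A1 and in B1. All 6 were upstream, at 63.9, 47.9, 44.4, 40.8, 38.7 and 19.3 kb. Over all peaks the shares were 1.72% in A2, 2.18% in B2, 0% in A1 and 0.0143% in B1. Beyond the Acsl1 block, within 200 kb of the start, 15 peaks are assigned to Helt, a transcription factor gene, and 5 of these passed the same mark in both A2 and B2. They lay 103 to 139.8 kb upstream of the Acsl1 start. Past the gene end, none of the 5 peaks of Cenpu (a centromere protein gene) and the 4 of Primpol (a primase-polymerase gene) passed it in any second-phase library.

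**Figure D2:**
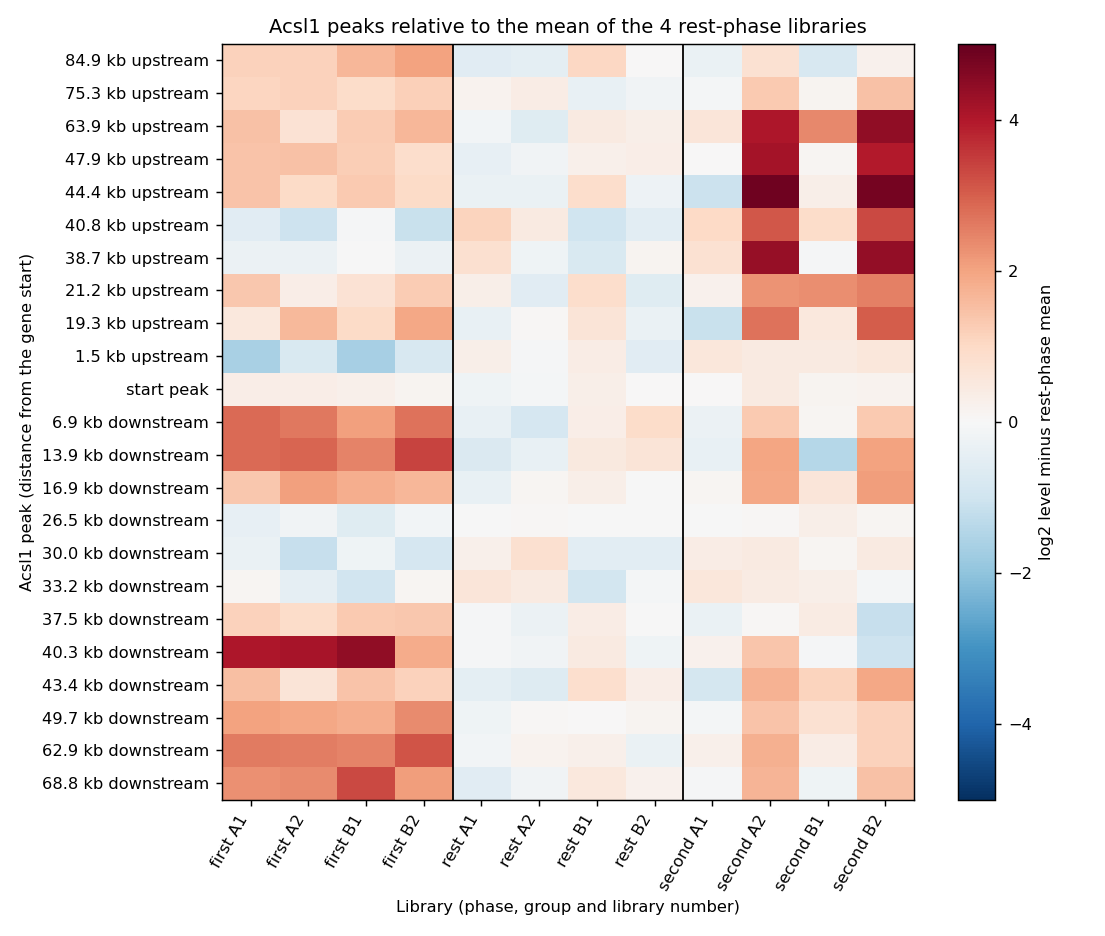
Level of each Acsl1 peak (rows, by distance from the gene start) in each library (columns) minus the mean of the 4 rest-phase libraries, in log2 units (colour). The 6 upstream peaks over 2 log2 units above all rest-phase libraries stand out in second-phase A2 and B2, and most gene-body peaks are higher in the first-phase libraries.

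The promoter peaks differed less between the phases. The start peak had levels of 9.53, 9.96, 9.66 and 9.66 in second-phase A1, A2, B1 and B2, against 9.28, 9.42, 9.81 and 9.51 in the rest phase. These ranges overlapped, and only A2 was above every rest-phase library. At the peak 1.5 kb upstream, second-phase levels were 6.67, 6.57, 6.57 and 6.68. Rest-phase levels were 6.39, 6.07, 6.48 and 5.53, and on this scale the ranges did not overlap. As shares of the reads in peaks they did, with second-phase B1 below rest-phase A1.

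Tested over 4 second-phase and 4 rest-phase libraries (limma on all peaks, Benjamini-Hochberg adjusted), 0 of the 23 Acsl1 peaks passed an adjusted p of 0.05 in either direction, as did 0% of all peaks. At an unadjusted p under 0.05 there were 8 Acsl1 peaks and 15973 peaks in all. The median fold of the Acsl1 peaks was 0.72 log2 units against -0.08 for all peaks. The lowest adjusted p was shared by several peaks, among them the one 63.9 kb upstream, with a log2 fold of 2.87 ± 0.70 (SE) and an adjusted p of 0.422. Leaving out each library in turn gave folds of 2.35 to 3.62 there and still 0 calls. With the authors' scaling factors in place of quantile scaling, 2 Acsl1 peaks were higher (63.9 and 44.4 kb upstream, log2 folds of 2.70 and 2.18, limma adjusted p of 9.9e-04 and 0.0371), beside 0.134% of all peaks, and 0 were lower, beside 0.00143%. The authors scaled each phase apart, so their factors do not put the phases on a common scale. The start peak had a log2 fold of 0.20 ± 0.14 (adjusted p = 0.570), and its sign turned under the other 2 scalings.

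Shares of reads within a library need no scaling between libraries. A share of all reads in peaks still depends on how the library's reads are spread over its peaks. Of the 12 libraries, second-phase B1 had the smallest part of its reads in the most open peaks. What part this had in its share of the locus was not tested. The 9 upstream peaks took 14.2%, 41.1%, 22.4% and 45.7% of the reads of the locus in second-phase A1, A2, B1 and B2. Rest-phase libraries gave them 17.0%, 14.2%, 10.8% and 9.65%, and first-phase libraries 7.76%, 7.45%, 7.92% and 11.0%. A2 and B2 were the highest of the 12 libraries, and A1 lay within the rest-phase range. Per 1000000 reads in peaks, the whole locus held 138, 324, 161 and 297 in the second phase, against 130, 132, 182 and 142 in the rest phase. The exact 95% binomial interval of each share, which covers counting error only, was 313 to 335 in second-phase A2 and 171 to 194 in rest-phase B1, the highest rest-phase library. The difference in log2 share was 0.57 (exact two-sided permutation test, p = 0.2, n = 4 and 4, smallest p possible 0.0286). It was 0.37 without second-phase A2 and 0.76 against reads in promoter peaks (exact permutation p = 0.4 and 0.0571). The start peak held 0.793, 0.462, 0.449 and 0.388 times the reads of the other 22 Acsl1 peaks together in the second phase, against 0.717, 0.776, 1.43 and 1.39 in the rest phase. That ratio differed by -1.03 log2 units (exact two-sided permutation test, p = 0.0857, n = 4 and 4). It differed by -0.31 with only the peaks that the authors annotate as intron below the line (exact permutation p = 0.4). That set leaves out the peak 16.9 kb downstream.

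**Figure D3:**
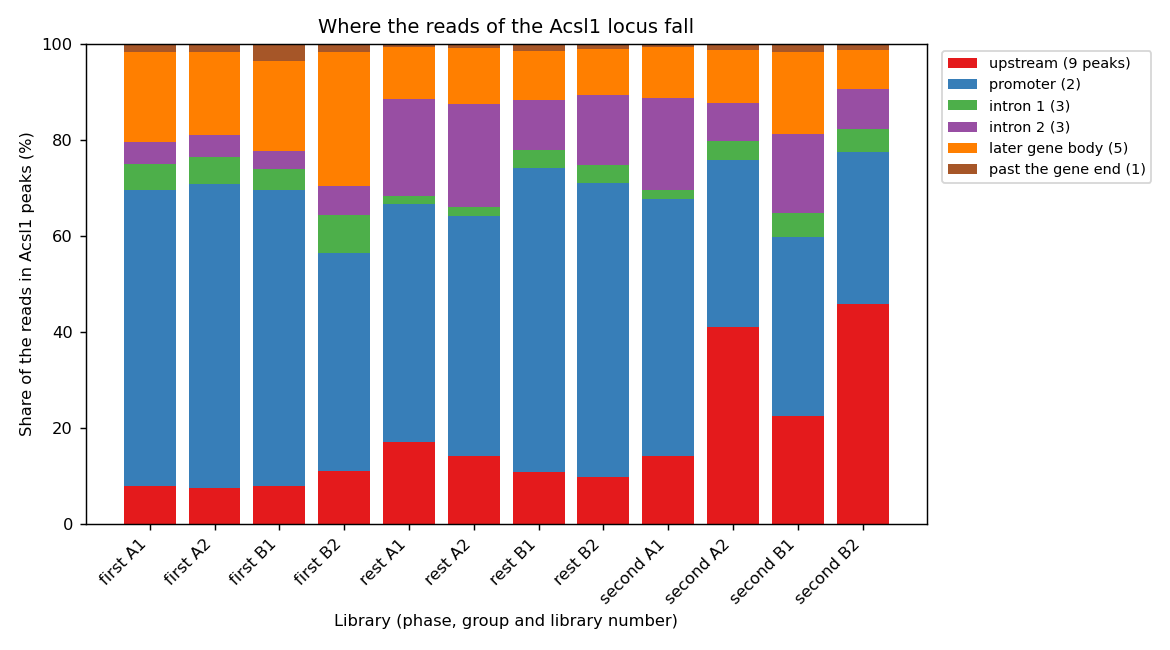
Share of the reads in Acsl1 peaks (%, y axis) that falls in each part of the locus, for each of the 12 libraries (x axis). The upstream share is 41.1% and 45.7% in second-phase libraries A2 and B2, and 22.4% or less in the other 10.

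Most Acsl1 peaks fell in the rest phase relative to the first. Of the 23 Acsl1 peaks, 15 (65.2%) were lower in the rest phase, against 18.8% of all peaks called lower, and 1 (4.35%) was higher, against 19.8% of all peaks (limma, adjusted p under 0.05, 4 rest-phase libraries and 3 first-phase samples). The median fold was -1.22 log2 units over the Acsl1 peaks and 0.02 over all peaks. First-phase libraries A1 and A2 had a variance only 1.12 times that of counting and were averaged to 1 sample. The 15 lower peaks were 6 upstream ones, all 3 of intron 1, all 5 of the later gene body and the 1 past the gene end.

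The deepest fall was in the later gene body, 40.3 kb downstream (chr8:46511344-46511743). Rest-phase libraries A1, A2, B1 and B2 had levels of 2.32, 2.17, 2.82 and 2.14 there, against 6.40, 6.47, 6.80 and 4.22 in first-phase libraries A1, A2, B1 and B2. First-phase B2, with 13 reads, was far below the other first-phase libraries, yet still above every rest-phase one. The log2 fold was -3.45 ± 0.53 (SE, adjusted p = 1.4e-04).

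In intron 1 the peak 13.9 kb downstream had levels of 3.00, 3.36, 4.20 and 4.36 in the rest phase, against 6.55, 6.65, 6.22 and 7.10 in the first phase. Its ranges were well apart, with a log2 fold of -2.91 ± 0.39 (adjusted p = 4.3e-05). The other intron 1 peaks, 6.9 and 16.9 kb downstream, had log2 folds of -2.49 and -1.71. Toward the end of the gene, the peak 62.9 kb downstream had levels of 5.21, 5.52, 5.59 and 5.02 in the rest phase, against 7.93, 7.89, 7.81 and 8.49 in the first phase. This was the second highest peak of the locus in the first phase, at the 94.6th percentile of all peaks, and it stood at the 62.6th in the rest phase (log2 fold -2.73 ± 0.26, adjusted p = 3.1e-06). The peaks 68.8 and 49.7 kb downstream fell by 2.57 and 2.05 on the log2 scale, and the remaining 2 of the gene body, 37.5 and 43.4 kb downstream, each fell by 1.22. The 6 upstream peaks that fell, at 84.9, 75.3, 63.9, 47.9, 44.4 and 19.3 kb, had log2 folds between -1.61 and -1.06.

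The peak 1.5 kb upstream and intron 2 did not follow, and the start peak was lower by value but passed under some settings only. The peak 1.5 kb upstream of the start (chr8:46469107-46469506) had levels of 6.39, 6.07, 6.48 and 5.53 in the rest phase, against 4.51, 5.35, 4.45 and 5.31 in the first phase. It was the 1 peak that rose (log2 fold 1.22 ± 0.32, adjusted p = 0.0079), and all 4 rest-phase libraries were above all first-phase ones. The start peak, at 9.28, 9.42, 9.81 and 9.51 in the rest phase, against 9.82, 9.82, 9.76 and 9.65 in the first phase, did not pass the test (log2 fold -0.24 ± 0.13, adjusted p = 0.167), but passed it when scaled to total reads in peaks (-1.03, adjusted p = 0.0036). The 3 intron 2 peaks had log2 folds of 0.34 to 0.59 and the upstream peaks at 40.8, 38.7 and 21.2 kb had 0.66, 0.20 and -0.94, and none of these 6 passed. Intron 2 made up 20.1%, 21.3%, 10.5% and 14.5% of the locus reads in the rest phase, against 4.57%, 4.58%, 3.77% and 6.18% in the first phase.

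**Figure D4:**
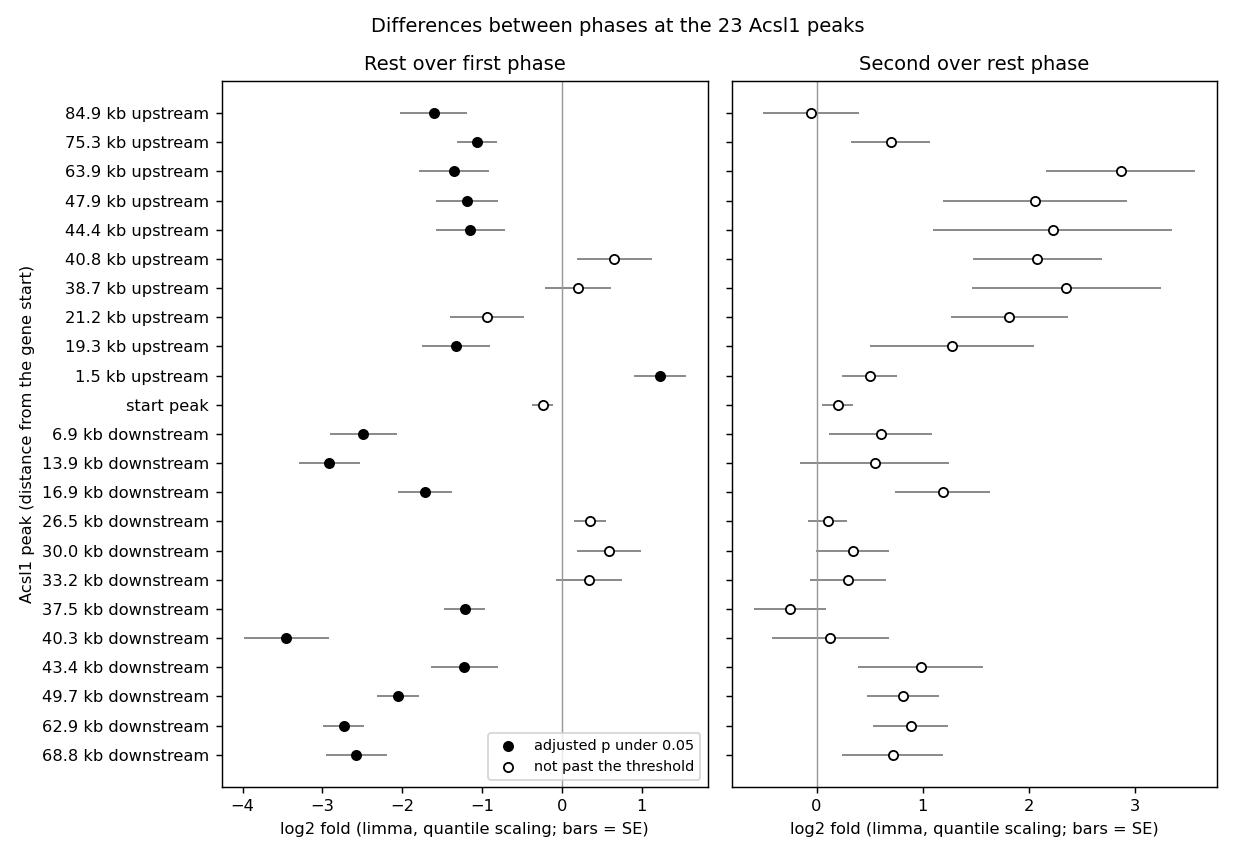
Log2 fold with its SE (x axis) at each Acsl1 peak (y axis) for the rest over the first phase (left) and the second over the rest phase (right), from limma with quantile scaling, with filled points past an adjusted p of 0.05. On the left 15 peaks are filled below 0 and 1 above it, and on the right none is filled.

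The number of these calls differed between scalings, of which the authors' factors were set within each phase and do not align the phases. The median fold of all peaks was 0.02 log2 units with quantile scaling, 0.31 with total reads in peaks and 0.76 with the authors' factors, while the Acsl1 median was -1.22, -1.06 and -0.69. The authors' factors left 5 Acsl1 peaks lower, beside 4.96% of all peaks, and 2 higher, beside 24.1%. Total reads gave 10 lower, beside 13.3%, and 2 higher, beside 26.6%. None of the 16 called Acsl1 peaks changed sign under any alternative run, and 6 kept their call in all 16 of them: those 1.5 kb upstream and 6.9, 13.9, 40.3, 62.9 and 68.8 kb downstream.

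Mean levels over marker lists of other marrow cells were lower in the rest phase, with overlapping ranges for the stromal and fat cell list. The mean level over neutrophil genes (10 of 10 with a peak) was 3.82 to 4.38 in the rest phase against 6.22 to 7.13 in the first phase. B cell genes (9 of 10) stood at 3.81 to 4.35 against 4.83 to 6.08 and erythroid and megakaryocyte genes (10 of 10) at 4.24 to 4.38 against 5.23 to 5.77. T and NK cell genes (9 of 10) stood at 4.77 to 5.15 against 5.30 to 5.45. Dendritic and mast cell genes (6 of 10) stood at 4.60 to 4.80 against 4.89 to 5.14, and stromal and fat cell genes (10 of 10) at 4.52 to 4.83 against 4.73 to 5.07. The macrophage list (10 of 10), which defines the labelled cell type, had a mean level of 6.06 to 6.41 against 5.42 to 5.78, but its genes differed: in 7 (such as Csf1r and Cd68) all rest-phase libraries were above all first-phase ones, Itgam was below in all, and Adgre1 and Lyz2 overlapped. By the same count, 9 of 10 neutrophil genes, 5 of 9 B cell genes, 3 of 9 T and NK cell genes and 8 of 10 erythroid and megakaryocyte genes were below in all. So were 2 of 6 dendritic and mast cell genes and 2 of 10 stromal and fat cell genes, with the other 8 of the latter overlapping. In the opposite direction, 1 T and NK cell gene and 1 dendritic and mast cell gene were above in all. The interferon and LPS response genes (20 of 20), which mark no cell type, also stood lower, at 4.77 to 4.90 against 5.06 to 5.30. Of these, 7 were below in all, 1 was above in all and 12 overlapped. No share over all genes is given beside these counts. First-phase B2 had the highest neutrophil level (7.13) and the lowest B cell level (4.83) of that phase. What part these cells had in the Acsl1 values was not tested.

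The whole locus took 130, 132, 182 and 142 per 1000000 reads in rest-phase libraries, against 278, 278, 266 and 267 in first-phase libraries A1, A2, B1 and B2. All rest-phase libraries were below all first-phase ones. The difference was -0.90 on the log2 scale, with an exact two-sided permutation p of 0.0571 (n = 4 and 3), the smallest that this design allows. Counted against reads in promoter peaks alone the difference was -0.34 (the same exact permutation p). Each first-phase library had a larger part of its reads in the most open peaks than any rest-phase library. What part this had in the difference of -0.90 was not tested. The ratio of the start peak to the other Acsl1 peaks differed by -0.29 log2 units (exact permutation p = 0.286). It was -0.68 with only the peaks that the authors annotate as intron below the line (exact permutation p = 0.171). Without 1 library it was -0.63 (first-phase B2), -0.13 (first-phase B1), -0.12 (rest-phase A1), -0.16 (rest-phase A2), -0.45 (rest-phase B1) or -0.44 (rest-phase B2). First-phase B2 (0.789) stood with rest-phase A1 and A2 (0.717 and 0.776) while the other first-phase libraries were at 1.56 to 1.65.

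Groups A and B within a phase are the comparison of diabetic or diabetic-trained cells with their controls, in a direction that the headers do not give. In the first phase, the authors' deposited table called 0 of the 23 Acsl1 peaks, as it did 0% of all peaks. At an unadjusted p under 0.05 it held 0 Acsl1 peaks and 812 in all, and limma with quantile scaling also called 0 (0 Acsl1 peaks and 5618 in all at an unadjusted p under 0.05).

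In the rest phase the authors' deposited table called 8 Acsl1 peaks (34.8%) higher in A, beside 39.7% of all peaks, and 0 higher in B, beside 0.0929%. The share of the locus was thus near that of all peaks. The deposited folds are shrunken, and the median in the authors' deposited table was 0.50 over the Acsl1 peaks and 1.04 over all peaks. The 8 peaks lay 75.3, 40.8 and 1.5 kb upstream and 26.5, 30.0, 33.2, 37.5 and 62.9 kb downstream, so all 3 intron 2 peaks were among them. The lowest adjusted p in the authors' deposited table was at 30.0 kb downstream, with log2 group means of 5.80 in A and 3.44 in B, a shrunken fold of 1.94 and an adjusted p of 0.0017. At 33.2 kb downstream the authors' deposited table had 6.21 in A and 3.92 in B (shrunken fold 1.91, adjusted p = 0.0018).

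With quantile scaling, limma called 1 of these peaks higher in A, beside 7.27% of all peaks, and 0 higher in B, beside 6.23%. It was the peak 40.8 kb upstream (chr8:46429847-46430246), with group A levels of 5.98 and 5.31 against group B levels of 3.87 and 4.36, which did not overlap. Its log2 fold was 1.53 ± 0.35 (SE, adjusted p = 0.0167). Before scaling it held 144 and 75 reads in A, against 12 and 18 in B, in libraries of 18602644 and 15990425 reads in A and of 5454821 and 8770052 reads in B. At 30.0 kb downstream the group A levels were 4.67 and 5.19 against group B levels of 3.87 and 3.90 (log2 fold 1.05 ± 0.36, adjusted p = 0.0764), and at 33.2 kb A had 5.38 and 5.21, against 3.87 and 4.67 for B (1.03 ± 0.35, adjusted p = 0.0791). Leaving out any 1 of the 4 rest-phase libraries leaves 1 library in its group, so calls are not read there. The log2 folds at 40.8 kb upstream were then 1.19 to 1.87.

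The start peak changed direction with the scaling. Its shrunken fold in the authors' deposited table was 0.50 (adjusted p = 0.418), whereas limma gave -0.31 with quantile scaling (adjusted p = 0.109) and -0.75 with total reads in peaks (adjusted p = 4.1e-06). With total reads, 3 Acsl1 peaks were called higher in A, beside 13.1% of all peaks, and 4 higher in B, beside 8.28%. With the authors' factors limma called 9 higher in A, beside 54.9%, and 0 higher in B, beside 0.461%. As a share of the locus, the start peak took 41.7% and 43.7% of reads in A and 58.9% and 58.2% in B, a contrast within each library.

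**Figure D5:**
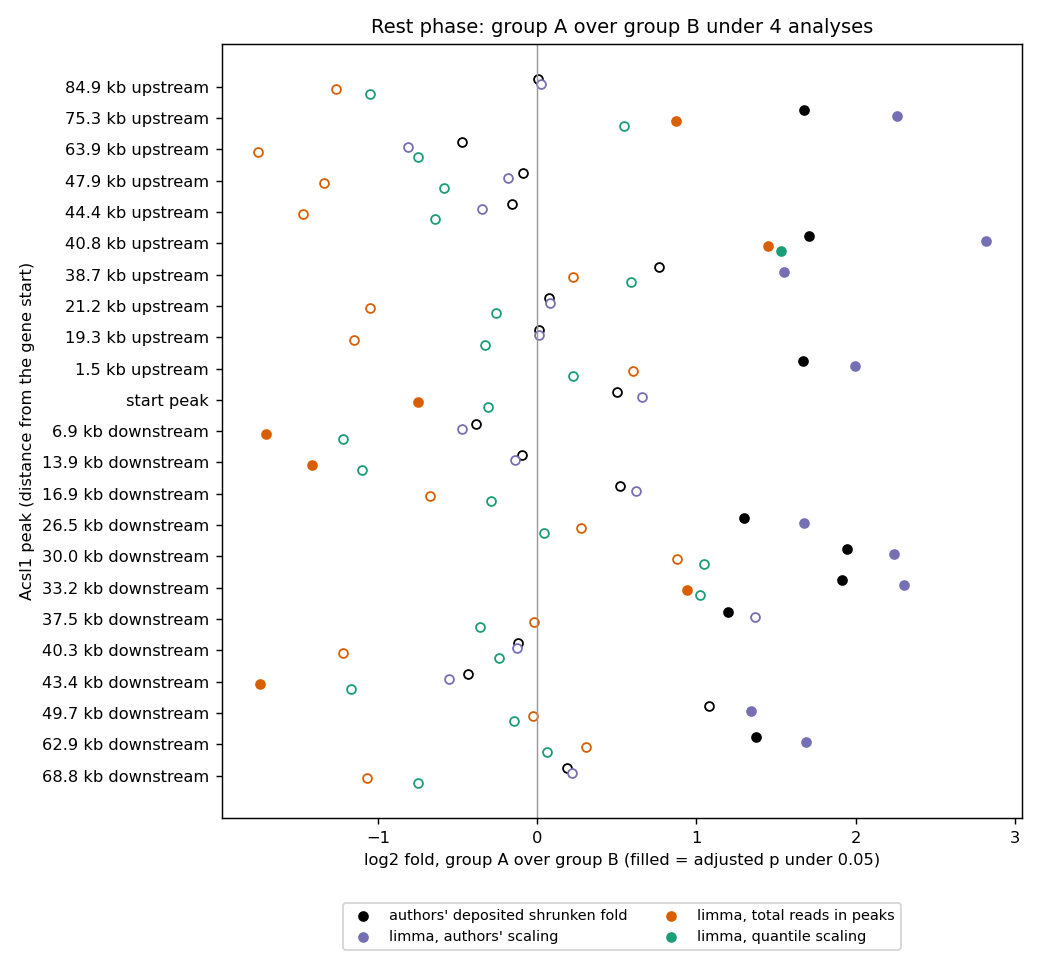
Log2 fold of group A over group B in the rest phase (x axis) at each Acsl1 peak (y axis): the authors' deposited shrunken fold and limma under 3 scalings, with filled points past an adjusted p of 0.05. Folds under the authors' scaling lie to the right of those with quantile scaling except at 63.9 kb upstream, and the peak 40.8 kb upstream is filled in all 4 analyses.

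In the second phase the authors' deposited table called 4 Acsl1 peaks (17.4%) higher in A, beside 26.7% of all peaks, and 0 higher in B, beside 0.00429%. In the authors' deposited table these were the peaks 1.5 kb upstream and 33.2, 37.5 and 62.9 kb downstream, with shrunken folds of 1.15, 1.35, 1.41 and 1.15 and adjusted p of 0.0439, 0.0283, 0.0244 and 0.0493. None of the upstream block was called there, and its deposited means average unlike libraries. At 44.4 kb upstream the authors' deposited table had log2 means of 6.89 in A and 6.27 in B (adjusted p = 0.741), where the libraries held 2 and 214 reads in A, against 8 and 115 in B. On the quantile scale the called peaks did not separate the groups, save the one 33.2 kb downstream. Levels were 6.67 and 6.57 in A, against 6.57 and 6.68 in B, at 1.5 kb upstream. At 33.2 kb downstream A had 5.36 and 5.20, against 5.07 and 4.70 for B. The 62.9 kb peak had 5.57 and 7.13 in A, against 5.70 and 6.49 in B, and the 37.5 kb peak 5.41 and 5.82 in A, against 6.16 and 4.61 in B. By limma, 0 Acsl1 peaks were called under quantile scaling, total reads or the authors' factors, as were 0% of all peaks. At an unadjusted p under 0.05 these fits held 0, 0 and 1 Acsl1 peaks, and 1039, 1364 and 5331 in all.

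The other family members are set beside Acsl1 for the rest over the first phase, where 19.8% of all peaks were higher and 18.8% lower. Acsl3 had 5 of 15 peaks higher and 0 lower, and Acsl4, which prefers arachidonic acid, had 10 of 28 higher and 0 lower (limma). Acsl5 had 2 of 9 higher and 2 lower, and Acsl6 had 0 of 7 in either direction. The difference between family members was not tested. Among the start peaks, that of Acsl1 had the highest mean level over the 12 libraries (9.66), followed by Acsl3 (8.41), Acsl4 (8.16) and Acsl5 (7.03).

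A list of 38 other genes of fatty acid uptake, activation, oxidation, storage and synthesis held 367 peaks at 37 genes. In the rest over the first phase 83 of them (22.6%) were higher, beside 19.8% of all peaks, and 66 (18.0%) lower, beside 18.8% (limma), with a median fold of 0.21 log2 units beside 0.02 for all peaks. The 4 genes with the smallest p included Cd36, the fatty acid uptake receptor, whose peak 8487 bp past its start had levels of 9.27, 9.25, 8.49 and 8.52 in the rest phase, against 4.71, 5.08, 5.82 and 5.90 in the first phase (log2 fold 3.35 ± 0.28). The others were Acsl4 (4.29 ± 0.37), Plin2, a lipid droplet coat protein (2.80 ± 0.25), and Fabp5, a fatty acid binding protein (-3.99 ± 0.33). In the rest phase, limma called 51 of these peaks (13.9%) higher in A, beside 7.27% of all peaks, and 23 (6.27%) higher in B, beside 6.23%. Among the genes at the smallest p, Cd36, Scd1 and Scd2 were higher in A (log2 folds of 1.60, 1.89 and 1.07). Cpt1a was higher in B (-1.18). In the second over the rest phase it called 0 of the 367.

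By Pearson correlation over the 12 libraries, the start peaks most like that of Acsl1 among 17575 were those of Cdca2 (0.876), Pex10 (0.854), Pik3r1 (0.848), Tnfrsf1b (0.817) and Ttc39b (0.816). Those most like the Acsl1 peak 63.9 kb upstream were of Kash5 (0.938), Ccl5 (0.928), Agrn (0.914), Sema4a (0.909) and Lif (0.900). Ccl5 is a chemokine that is also on the interferon and LPS list. The start peak of Ccl5 had levels of 4.21, 8.59, 4.93 and 8.69 in second-phase A1, A2, B1 and B2, against 3.36, 3.22, 4.91 and 3.21 in the rest phase. These correlations are a description over libraries that share phases, groups and depth.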

How the data were processed

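ATAC-seq was measured in 12 libraries. Per the submitters' processing notes the build was mm10 and the tools included HOMER 5.1, DiffBind 3.14.0 with DESeq2, MACS2 and Bowtie2 2.5.4. Settings are not stated there. For each phase, 1 table deposited by the authors gives log2 means of normalized reads for the pair of groups, a shrunken log2 fold, a p-value and an adjusted p-value for the same 139999 peaks, 99.8% of them 400 bp wide. In the rest-phase table the deposited fold was A minus B. In the other tables it was B minus A, so its sign was changed to give A over B. In the second phase 38000 peaks, 4 of Acsl1, are listed at an adjusted p of 1.

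Each group mean is the average of 2 whole read numbers times the worth of a read in each library. Every mean above 0 had exactly 1 solution (largest relative miss 3.47e-09), which gave reads of all 12 libraries for 139557 peaks, and 442 peaks were left out. Library 1 has the smaller worth of a read and carries no replicate number. Between phases, limma 3.58.1 (R 4.3.3; empirical Bayes with trend) was fitted to log2(quantile-scaled reads + 1) over all peaks, with groups A and B pooled and Benjamini-Hochberg adjustment over all peaks. Within phases the authors' adjusted p under 0.05 was the call, and limma an alternative. Fits and recovery were tested on simulated data. The simulated fits gave every library the same spread and held no unlike libraries within a phase. They therefore do not show how the fits behave in the second phase. Single values were tested with exact permutation over libraries. Other alternatives were total reads, the authors' factors, quantile scaling within a comparison, pseudocounts of 0.5 and 4, a minimum mean of 10 reads, a threshold of 0.01, 4 group means and leaving out each library; the 4 group means and the scaling within a comparison were chosen after seeing the data. Values are given in full for the start peak, the peaks past a test and the most and least open peak, and the text adds others of the upstream block, chosen after their values were seen. The members and lists were chosen with earlier results of these data known. Sequences come from RefSeq (GRCm38.p6).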

Additional observations from a re-analysis of the deposited data

Results flagged for a closer look

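Within the 4 libraries of the rest phase, and those of the second phase (groups A and B together), 1 library was far from the other 3 in 2 of 50 sets of values examined, where chance alone gives about 1 in 20. At the peak 44.4 kb upstream of Acsl1, rest-phase library B1 had a level of 3.53 (10 reads), and the other 3 rest-phase libraries had 2.32 to 2.39 (5 reads each). At the peak 21.2 kb upstream, second-phase library A1 had a level of 2.70 (7 reads), and the other 3 second-phase libraries had 4.71 to 5.01.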

How the results depend on the processing

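No paired analysis was possible because the recovered libraries carry no replicate number. Higher-in-A calls in the rest phase (8 in the authors' table) became 3 at an adjusted p under 0.01, 1 with limma under either quantile scaling and 3 with total reads (then 4 higher in B). In the second phase the 4 such calls became 0 under each of these and with the authors' factors. Within a phase, leaving out 1 library leaves 1 library in its group, so only folds are given for such fits. Rest over first gave 2 higher with the authors' factors or total reads, and 5 lower with the authors' factors, and 10 to 17 lower without 1 library. The share of all peaks called is not given for the 0.01 threshold, for quantile scaling within a comparison or without 1 library. Whether the locus differed from all peaks there was not tested. Second over rest gave 2 higher with the authors' factors, which were set within each phase and do not align the phases. With the first-phase A pair as 2 libraries, the share of the locus differed by -0.91 (exact permutation p = 0.0286).

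The sign turned in these A over B folds under quantile scaling, quantile scaling within the phase and total reads: 21.2 kb upstream in the rest phase (-0.26, -0.33 and -1.05), the start peak in the rest phase (-0.31, -0.27 and -0.75) and 37.5 kb downstream in the rest phase (-0.36, -0.37 and -0.017). At 1.5 kb upstream in the second phase it turned under the quantile scalings (-0.0071 and -0.0062). The second over rest fold of the start peak turned with the authors' factors (-0.32) and total reads (-0.023). Without 1 library, limma's A over B folds ranged as follows. In the first phase the range was -0.67 to 0.34 at 21.2 kb upstream. In the rest phase it was -1.002 to 0.48 there, -0.25 to 0.70 at 1.5 kb upstream, -0.46 to -0.16 at the start, -0.55 to -0.16 at 37.5 kb and -0.22 to 0.34 at 62.9 kb downstream. In the second phase it was -0.062 to 0.048 at 1.5 kb upstream, -0.12 to 0.30 at the start, -0.55 to 0.997 at 37.5 kb and -0.52 to 1.04 at 62.9 kb downstream. The authors' folds are shrunken and limma's are not. The cause of these changes was not tested. Many upstream peaks rest on under 20 reads a library in the first and rest phases, which limits the precision of their folds.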
